A study of Homo sapiens with 2 samples.

Results

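The genes described are NFE2L2, which encodes the transcription factor NRF2, its inhibitor KEAP1, and 8 genes known to be induced by NRF2 (GCLC, GCLM, SLC7A11, TXNRD1, SRXN1, NQO1, HMOX1 and FTH1). They were chosen by name, 10 of 19970 protein-coding genes of the RefSeq table on chromosomes 1 to 22 and X, and all 10 were found in it. ChIPmentation, a chromatin immunoprecipitation with adapters inserted by Tn5 transposase while the chromatin is still on the beads, was done in PANC-1, a cell line established from a human pancreatic ductal carcinoma. There was 1 sample treated with inflachromene, a compound reported to act on the chromatin proteins HMGB1 and HMGB2, and 1 treated with the solvent DMSO, and each is represented by 1 deposited list of peaks on the hg38 build. The sources used here do not name the protein the antibody binds, nor how much inflachromene was added or for how long, so a peak means only that fragments piled up at that place. With 1 sample per treatment there is no replicate and no test between treatments, and every difference below compares these libraries, not the conditions.

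NRF2 is held in the cytoplasm by KEAP1, an adaptor of a CUL3 ubiquitin ligase, and is degraded there. Electrophiles and oxidants modify cysteines of KEAP1, NRF2 is then spared, enters the nucleus and binds antioxidant response elements together with a small MAF protein, while BACH1 competes for the same elements. Its targets make glutathione, take up cystine, reduce thioredoxin and quinones, break down haem and store iron, and in pancreatic cancer NRF2 is known for keeping oxidant levels low.

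The deposited lists held 10836 peaks in inflachromene and 15186 in DMSO on these chromosomes, with a median of 23 fragments over the summit in both. The pileup, the number of fragments over a summit, was recovered as a whole number from the deposited fold enrichment and −log10 p, and the fragment number of the inflachromene library was inferred to be 0.964 times that of DMSO. Of all DMSO peaks 35.5% had no overlapping inflachromene peak, and of all inflachromene peaks 9.62% had no DMSO peak. Among marker genes, both lists had 1 peak shared by the epithelial genes KRT8 and KRT18, and peaks at the ductal gene SOX9 and the mesenchymal gene VIM. DMSO alone had peaks at KRT19 and ZEB1. Neither list had a peak at the epithelial genes EPCAM and CDH1 or at the mesenchymal gene CDH2. Peaks also lay at none of the leukocyte, endothelial, hepatocyte and acinar markers examined.

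The starts of 7 of the 10 genes are in RefSeq's promoter table for GRCh38.p14, with 10 windows of 300 bases, and SLC7A11, HMOX1 and FTH1 are not. NFE2L2, KEAP1 and TXNRD1 have 2 annotated starts each, called outer (at the gene's end) and inner. The 250 bases before the start are shown for 5 of them: the 3 that both carried a peak and matched the element, the start of the NRF2 gene itself, and NQO1, where the libraries differed most among the gene ends. Sequences run 5′ to 3′ on the gene's strand, and capitals mark matches to TGACNNNGC, the core of the antioxidant response element, on either strand.
GCLM, chr1:93909431-93909680, minus strand: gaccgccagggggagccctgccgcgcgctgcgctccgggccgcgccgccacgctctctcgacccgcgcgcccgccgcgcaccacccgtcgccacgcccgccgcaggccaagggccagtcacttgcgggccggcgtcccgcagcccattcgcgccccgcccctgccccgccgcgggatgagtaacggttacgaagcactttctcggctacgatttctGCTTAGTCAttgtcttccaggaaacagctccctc
KEAP1 inner start, chr19:10502772-10503021, minus strand: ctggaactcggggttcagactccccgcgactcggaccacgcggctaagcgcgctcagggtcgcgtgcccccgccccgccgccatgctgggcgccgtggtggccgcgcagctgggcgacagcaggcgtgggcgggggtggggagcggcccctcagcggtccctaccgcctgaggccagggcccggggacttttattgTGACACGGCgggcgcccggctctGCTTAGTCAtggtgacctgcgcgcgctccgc
TXNRD1 inner start, chr12:104286782-104287031, plus strand: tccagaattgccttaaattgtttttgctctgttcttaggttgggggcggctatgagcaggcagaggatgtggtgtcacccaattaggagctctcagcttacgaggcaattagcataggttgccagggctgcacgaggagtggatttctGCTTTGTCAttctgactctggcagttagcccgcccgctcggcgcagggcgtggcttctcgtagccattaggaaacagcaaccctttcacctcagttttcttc
NFE2L2 outer start, chr2:177264728-177264977, minus strand: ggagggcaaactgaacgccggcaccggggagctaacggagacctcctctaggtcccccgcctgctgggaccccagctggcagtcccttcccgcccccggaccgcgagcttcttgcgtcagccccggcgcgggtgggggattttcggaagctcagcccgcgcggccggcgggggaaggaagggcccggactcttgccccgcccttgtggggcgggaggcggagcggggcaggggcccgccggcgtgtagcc
NQO1, chr16:69726561-69726810, minus strand: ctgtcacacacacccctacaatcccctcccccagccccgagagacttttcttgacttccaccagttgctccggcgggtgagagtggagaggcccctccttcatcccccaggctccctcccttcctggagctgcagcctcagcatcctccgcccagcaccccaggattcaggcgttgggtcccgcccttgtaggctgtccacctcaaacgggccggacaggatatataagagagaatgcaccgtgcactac

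The core was found in 4 of the 10 windows, at 3 genes (GCLM, KEAP1 and TXNRD1), against 13.3% of all 35116 windows of the promoter table. GCLM and the inner start of KEAP1 carried the same letters, GCTTAGTCA, which are the core on the opposite strand, at positions −34 to −26 and −31 to −23 counted from the start base as 0. The inner start of TXNRD1 carried GCTTTGTCA at positions −102 to −94. With an A required after TGACNNNGC, these 3 matches remained, in 3 of 10 windows against 3.18% of all. KEAP1 had a second match, TGACACGGC, further from the same start. The outer start of TXNRD1 had 2 matches, TGACTTCGC and GCTCCGTCA, in a window that neither list covered with a peak. The AP-1 site TGANTCA, which shares its first letters with the element core, was in none of the 10 windows, against 7.71% of all, and the GC box GGGCGG was in 8, against 45.0% of all. No match says only that these letters are not in the window.

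A peak lay within 1 kb of an end of 7 of the 10 genes in inflachromene (95% Clopper-Pearson interval 34.8 to 93.3%) and of 6 in DMSO (26.2 to 87.8%). The same held for 38.2% of all protein-coding genes in inflachromene and for 45.8% in DMSO. NFE2L2, GCLC, GCLM, SRXN1, NQO1 and FTH1 had an end peak in both lists, and KEAP1 had one in inflachromene alone. HMOX1, SLC7A11 and TXNRD1 had none in either list. Thus 0 of the 6 genes with a DMSO end peak lacked one in inflachromene, where 20.2% of all protein-coding genes with a DMSO end peak did, and this difference was not tested. A place with no peak in a list can still hold fragments there, below the level at which peaks were called. All intervals given cover counting error and leave out any spread from culture to culture.

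**Figure D1:**
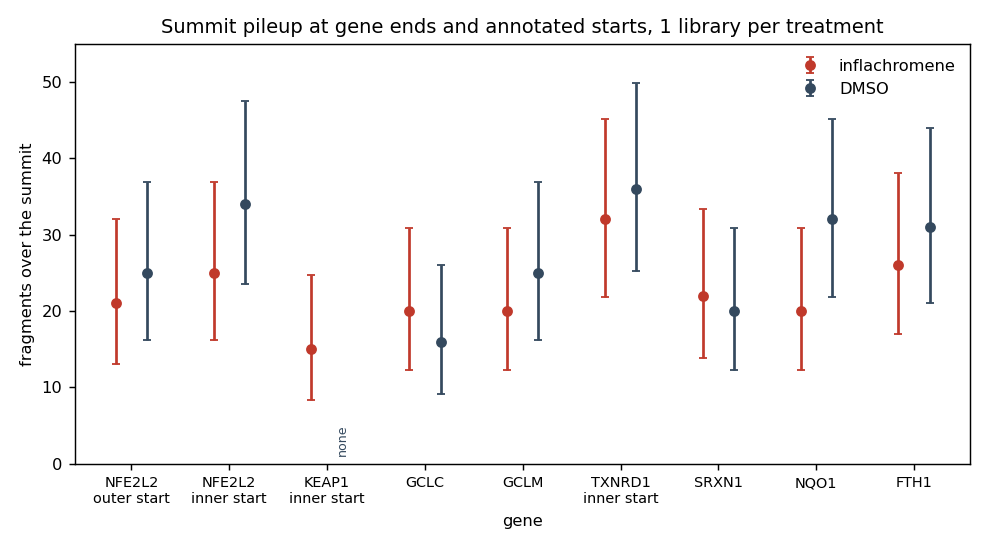
Fragments over the summit (vertical axis) at the peaks at gene ends or annotated starts, for inflachromene (left, red) and DMSO (right, dark) in each pair; points are the recovered pileups and bars exact Poisson 95% intervals. The intervals of the libraries overlap at every gene with a peak in both, and KEAP1 has a peak in inflachromene alone.

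NFE2L2 lies on chromosome 2 at 177230303 to 177264727 on the minus strand, and both lists had a peak at its outer start and another near its inner start. At the outer start the summit held 21 fragments in inflachromene (Poisson interval 13.0 to 32.1) and 25 in DMSO (16.2 to 36.9), with fold enrichments of 5.59 and 5.42. The inflachromene pileup was 0.840 times that of DMSO (counting interval 0.447 to 1.56). The peaks covered all 300 bases of the outer promoter window in both lists, and the 3 GC boxes in it lay under them. The other position, inside the gene, was higher in both libraries. Its DMSO summit was 478 bp downstream of the inner start and 1074 bp from the gene's end, just outside the 1 kb window, and it held 25 fragments in inflachromene and 34 in DMSO. The ratio there was 0.735 (0.421 to 1.27), so the DMSO library had more fragments at both NFE2L2 positions, within counting error.

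KEAP1, the gene of the NRF2 inhibitor, was the member with an end peak in inflachromene alone, a class that held 1.59% of all protein-coding genes. Its peak on chromosome 19, at 10502694 to 10502899, was 206 bp wide and held 15 fragments (8.40 to 24.7) at 6.49-fold enrichment. The peak lay at the inner start, 563 bp inside the gene's end, and covered both matches to the element core shown above. Its summit was 1 bp from GCTTAGTCA. No DMSO peak overlapped it, and the lowest pileup called in the DMSO list at a like local background was 10 fragments. The missing peak therefore allows a DMSO pileup of just under 10 fragments, and a difference between the libraries at KEAP1 is not shown. The outer start of KEAP1 had no peak in either list. A second peak in inflachromene alone, with 10 fragments, lay 40503 bp beyond KEAP1 at an end of ATG4D, encoding an autophagy protease.

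GCLM and GCLC, genes of glutathione synthesis, had end peaks in both libraries. Their end pileups were below the medians of 26 in inflachromene and 32 in DMSO over genes with a peak in both lists. GCLM, encoding the modifier subunit of glutamate-cysteine ligase, held 20 fragments in inflachromene (12.2 to 30.9) and 25 in DMSO (16.2 to 36.9), on chromosome 1 at 93909480 to 93909866 in inflachromene and 93909461 to 93909769 in DMSO. Fold enrichments were 8.43 and 12.0, the highest DMSO value among the 6 genes. The summits lay upstream of the start, and the element core of GCLM was not under the inflachromene peak, while the edge of the DMSO peak covered 4 of its 9 bases. The DMSO summit was 195 bp from the GCLM start and 33 bp from an end of a lncRNA gene, LOC124904221. The pileup ratio was 0.80 (0.421 to 1.5).

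GCLC, encoding the catalytic subunit of the same ligase, was one of 2 members with more fragments in inflachromene. Its start on chromosome 6 held 20 fragments in inflachromene (12.2 to 30.9) and 16 in DMSO (9.15 to 26.0), a ratio of 1.25 (0.615 to 2.58). Both lists had another peak 2992 bp upstream of the start, at 53548022 to 53548330 in inflachromene and 53548004 to 53548330 in DMSO. There the summit held 27 fragments in inflachromene and 22 in DMSO, with fold enrichments of 6.94 and 6.49, more in each library than at the start. The nearest end of another protein-coding gene, KLHL31, lay 99823 bp away. The human GCLC gene is known for an antioxidant response element far upstream of its start, and whether this peak covers it was not examined, as no genome sequence was used here.

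SLC7A11, encoding the cystine transporter xCT, was the only one of the 10 genes with no peak nearby. Neither list had one inside the gene, on chromosome 4 at 138164097 to 138242349, or within 50 kb of it. The same was true of 23.6% of all protein-coding genes. SLC3A2, which encodes the heavy chain that pairs with xCT and is not one of the 10 genes, had 36 fragments in inflachromene and 53 in DMSO.

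TXNRD1, encoding cytosolic thioredoxin reductase, had no peak within 1 kb of its ends, but 4 in inflachromene and 6 in DMSO inside the gene. The highest of its DMSO peaks lay at the inner start on chromosome 12, at 104286812 to 104287087 in inflachromene and 104286812 to 104287217 in DMSO. It held 32 fragments in inflachromene (21.9 to 45.2) and 36 in DMSO (25.2 to 49.8), a ratio of 0.889 (0.534 to 1.47). The element core GCTTTGTCA lay fully under both peaks, 4 bp from the inflachromene summit and 17 bp from the DMSO summit. A window counted from gene ends alone misses this start, and with all annotated starts counted the genes with a peak were 8 in inflachromene and 7 in DMSO. The share of all protein-coding genes with a peak under that rule was not computed, so these counts have no background.

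The other TXNRD1 peaks were spread over the gene. A position 4329 bp inside the outer start held 22 fragments in inflachromene and 16 in DMSO, and a smaller peak 3812 bp inside it was in inflachromene alone, with 17 fragments. Another 3 peaks were in DMSO alone, with 18, 22 and 15 fragments. The remaining position, with 37 fragments in inflachromene and 32 in DMSO, lay 101 bp from an end of EID3, a gene within TXNRD1, and cannot be credited to one of them. SRXN1, encoding sulfiredoxin, which repairs overoxidised peroxiredoxins, had 1 position, upstream of its start on chromosome 20. It held 22 fragments in inflachromene (13.8 to 33.3) and 20 in DMSO (12.2 to 30.9), a ratio of 1.1 (0.573 to 2.12).

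NQO1, encoding NAD(P)H quinone dehydrogenase, had the lowest ratio of the 6 genes. The summit on chromosome 16 held 20 fragments in inflachromene (12.2 to 30.9) and 32 in DMSO (21.9 to 45.2), with fold enrichments of 6.78 and 9.66. The ratio of 0.625 (0.339 to 1.13) had an interval that includes 1. Of all protein-coding genes with a peak in both lists, 12.0% had a lower ratio. The peak was also narrower in inflachromene, 334 bp against 443 bp in DMSO, and the nearer end of a divergent lncRNA gene, NQO1-DT, lay 163 bp from its DMSO summit.

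HMOX1, the gene of the inducible haem oxygenase, had no peak inside it or within 1 kb of its ends, on chromosome 22 at 35381096 to 35394207. Both lists had 3 peaks within 50 kb of it. The nearest one away from other protein-coding gene ends lay 9058 bp beyond the lower-coordinate end, at 35371990 to 35372211 in inflachromene and 35371985 to 35372142 in DMSO. It held 16 fragments in inflachromene (9.15 to 26.0) and 14 in DMSO (7.65 to 23.5). Another lay 30255 bp beyond that end, 2868 bp from an end of TOM1, with 23 and 15 fragments in inflachromene and DMSO, a ratio of 1.53 (0.766 to 3.16). The last, with 25 fragments in inflachromene and 30 in DMSO, lay 83 bp from an end of MCM5, a gene of the replicative helicase.

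FTH1, encoding the heavy chain of ferritin, had a peak at its higher-coordinate end on chromosome 11 and another 4343 bp beyond it. The end held 26 fragments in inflachromene (17.0 to 38.1) and 31 in DMSO (21.1 to 44.0), a ratio of 0.839 (0.478 to 1.46). The outer position, at 61971792 to 61972063 in inflachromene and 61971880 to 61972097 in DMSO, held 30 fragments in inflachromene (20.2 to 42.8) and 24 in DMSO (15.4 to 35.7), a ratio of 1.25 (0.706 to 2.23). The order of the libraries was thus opposite at the 2 FTH1 positions, within counting error at each. FTH1 has 27 pseudogenes in the RefSeq table, and neither list had a peak within 1 kb of any of them. A far upstream antioxidant response element is known for human FTH1 as well, and its place relative to these peaks was not examined.

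**Figure D2:**
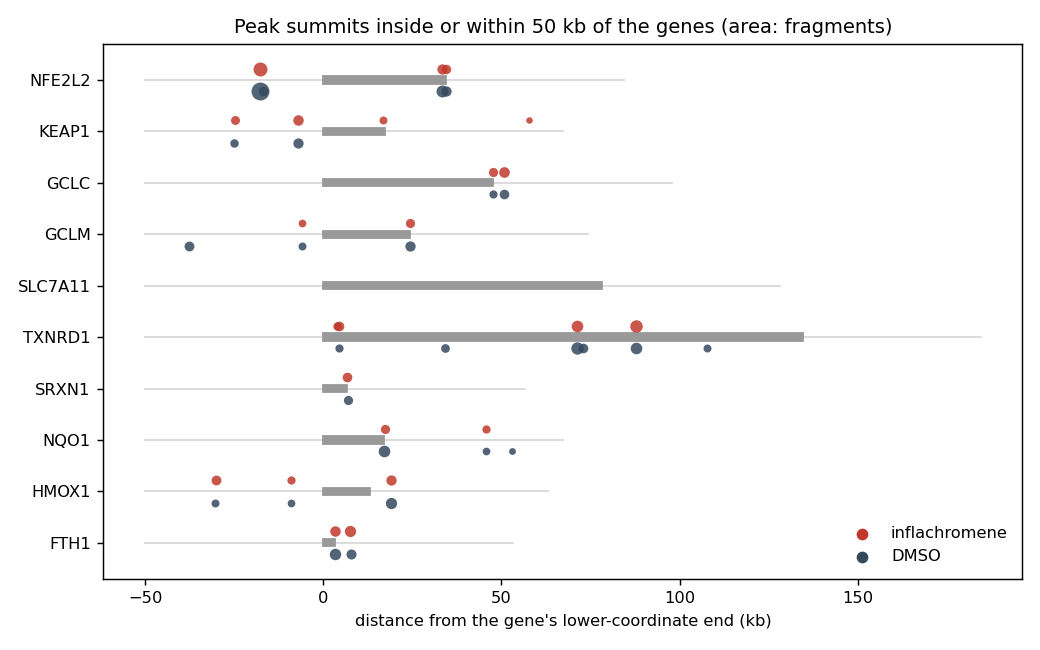
Peak summits along each gene (grey bar) and its 50 kb flanks, as distance in kb from the gene's lower-coordinate end, with inflachromene above and DMSO below the line and area in proportion to the fragments over the summit. SLC7A11 has no peak, HMOX1 has peaks only outside the gene, and TXNRD1 has peaks only inside it.

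Set beside all protein-coding genes with a peak in both lists, the 6 gene ends had low peaks and ratios near the median. Their pileups of 20 to 26 in inflachromene and 16 to 32 in DMSO were at or below the medians of those genes, 26 in inflachromene and 32 in DMSO. Fold enrichment was below the median of 8.74 in inflachromene at all 6, and below that of 10.3 in DMSO at all but GCLM. The inflachromene pileup was a median of 0.839 times that of DMSO, against 0.821 times over 7235 protein-coding genes with overlapping peaks in both. The summed pileups, 129 in inflachromene and 149 in DMSO, gave a ratio of 0.866 (0.679 to 1.1). The ratio was below 1 at 4 of the 6, against 77.6% of all such genes, and above 1 at 2 of the 6 (GCLC and SRXN1), against 18.1%. NQO1 alone was at or below 1/1.5, as were 19.1% of all, and none was at or above 1.5, as were 1.15%. The ratio at GCLC exceeded that of 95.1% of the genes, on 20 and 16 fragments in inflachromene and DMSO. Its fold enrichments were 5.04 in inflachromene and 4.65 in DMSO, a ratio of 1.09, which was not ranked among all genes.

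**Figure D3:**
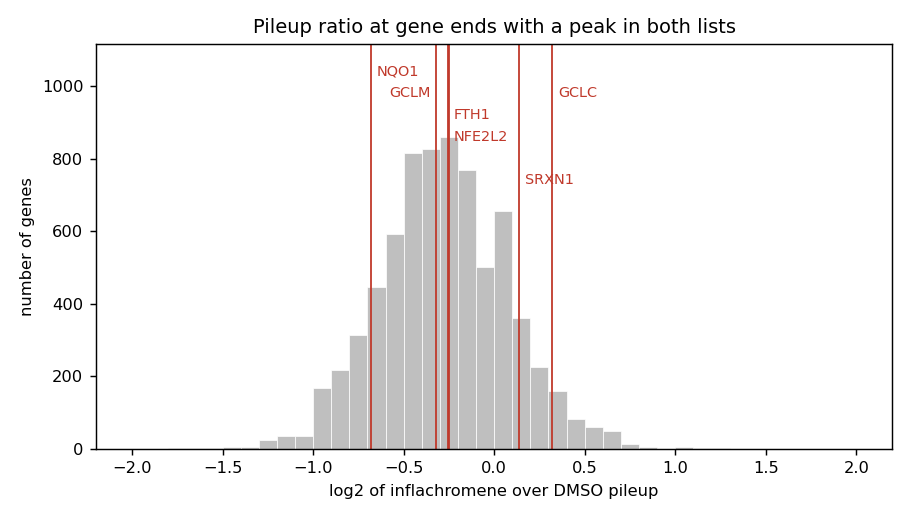
Number of protein-coding genes (vertical axis) by log2 of the ratio of inflachromene to DMSO pileup at their end peaks (horizontal axis), for genes with overlapping peaks in both lists; red lines mark the 6 NRF2 pathway genes. The lines run from NQO1 at a ratio of 0.625 to GCLC at 1.25 and lie within the range of all genes.

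Inside the 10 genes or within 50 kb of them, 23 peaks were called in inflachromene and 26 in DMSO, at 29 separate positions. Both lists had a peak at 20 positions, inflachromene alone at 3 and DMSO alone at 6. Thus 87.0% (66.4 to 97.2%) of the inflachromene peaks and 76.9% (56.4 to 91.0%) of the DMSO peaks were shared. Over the whole lists, 9.62% of the inflachromene peaks and 35.5% of the DMSO peaks were not. Of the 6 positions in DMSO alone, 3 were inside TXNRD1 and the others lay at ends of HNRNPA3, BCAR3 and WWP2. The summit at BCAR3 was 694 bp from that gene's end and 116 bp from a tRNA gene, TRR-TCT1-1. The highest position near any of the genes, with 46 fragments in inflachromene (33.7 to 61.4) and 76 in DMSO (59.9 to 95.1), lay at an end of HNRNPA3, an RNA-binding protein gene near NFE2L2. Its ratio of 0.605 (0.410 to 0.884) was the only one of the 20 shared positions whose counting interval did not include 1. That interval did include 0.833, the median ratio over all shared DMSO peaks. Lower positions shared by both lists lay at ends of DNTTIP2 near GCLM, with 14 fragments in inflachromene and 15 in DMSO, and of NOB1 near NQO1, with 16 in inflachromene and 14 in DMSO.

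At 6 shared positions outside the 10 genes and at no protein-coding gene end, beside KEAP1 (2), HMOX1 (2), GCLC and FTH1, the inflachromene pileup was higher at all 6, with a median ratio of 1.19. Over all shared DMSO peaks beyond 1 kb of any protein-coding gene end, 23.2% had a ratio above 1 and the median was 0.846. Those peaks include ones inside genes, which the 6 positions leave out. By fold enrichment, the HMOX1 position 9058 bp from the gene was slightly lower in inflachromene (6.11) than in DMSO (6.15). Fold enrichment was higher in inflachromene at the others of the 6, and its share over all such peaks was not computed. At 4 shared positions inside the 10 genes and beyond 1 kb of their ends, 2 ratios were above 1 and 2 below. The 2 below lay at or near the inner starts of NFE2L2 and TXNRD1. The EID3 end was 1 of the 2 above, but its fold enrichment was lower in inflachromene (4.28) than in DMSO (5.82). The pattern at the 6 outside positions was noticed after the values were seen, each of the 6 intervals includes 1, and no test was made. At KEAP1 these positions lay 24965 and 7015 bp beyond the lower-coordinate end, on either side of an end of PDE4A, with 19 and 26 fragments in inflachromene and 17 and 25 in DMSO.

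**Figure D4:**
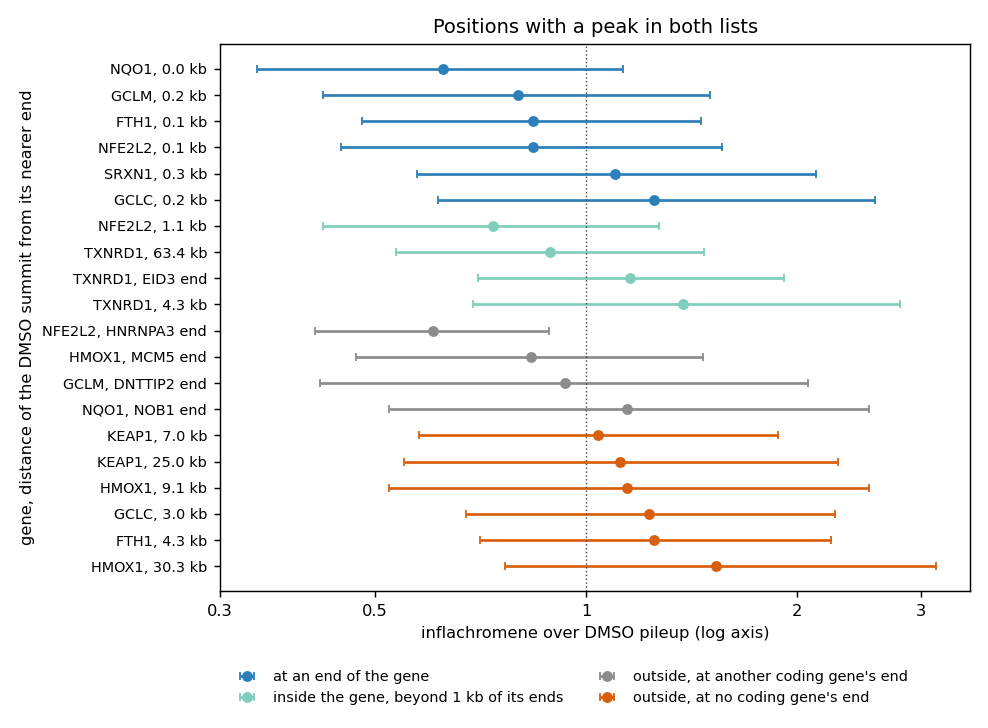
Ratio of inflachromene to DMSO pileup (horizontal log axis) at the 20 positions with a peak in both lists, with counting 95% intervals as bars and colours for the kind of position; labels give the gene and the distance of the DMSO summit from its nearer end, or the other gene whose end is there. The 6 positions outside the genes and at no coding gene's end lie right of 1 with intervals that cross it, and the HNRNPA3 end lies fully left of it.

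The pathway's other genes, 51 in all, had an end peak in 32 cases in inflachromene (62.7%, interval 48.1 to 75.9%) and in 36 in DMSO (70.6%, 56.2 to 82.5%). Both shares lay above those of all protein-coding genes, 38.2% and 45.8%. Both lists had one at 29 of the 51 genes, against 36.6% of all protein-coding genes. Inflachromene alone had one at 3 of the 51, against 1.59% of all genes. DMSO alone had one at 7 of the 36 genes with a DMSO peak, where 20.2% of all such genes lacked an inflachromene peak. Neither list had one at 12 of the 51, against 52.6% of all genes. These shares over all genes, 36.6% in both lists and 52.6% in neither, also stand behind the small role groups that follow, and no group was tested against them. The 29 had a median ratio of 0.857, with 20 below 1, 7 above and 2 equal, close to the median of 0.821 over all genes. Counting intervals included 1 at 26 of them. At the other 3 (GGCT, PRDX5 and BLVRB) the intervals lay below 1 and included the median of 0.821 over all genes.

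Among 9 regulators and partners of NRF2, CUL3, which encodes the scaffold of the KEAP1 ubiquitin ligase, had 55 fragments in inflachromene and 60 in DMSO, and RBX1, its RING subunit, had 39 and 32. MAFK and MAFG, which encode small MAF partners of NRF2, had a peak in inflachromene alone, with 28 and 22 fragments. The MAFG peak also lay at an end of SIRT7. BACH1, the gene of the repressor that competes with NRF2, had a peak in DMSO alone, with 13 fragments. SQSTM1, encoding the autophagy receptor that binds KEAP1, had none.

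Both lists had a peak at 7 of 8 other glutathione genes, and neither had one at GSR, which encodes glutathione reductase. GGCT, an enzyme gene of glutathione breakdown, had the highest mean pileup of the group, with 50 fragments in inflachromene and 73 in DMSO, a ratio of 0.685 (0.468 to 0.995). Both lists had a peak at 8 of 12 thioredoxin and peroxide-removal genes, and DMSO alone at 2, of which SOD1, encoding cytosolic superoxide dismutase, held 17 fragments. The ratio was below 1 at 7 of these 8 genes, against 77.6% of all such protein-coding genes, and their median was 0.75. CAT, encoding catalase, had 36 and 48 fragments in inflachromene and DMSO. PRDX5, a peroxiredoxin gene named here after its values were seen, had 29 and 52, a ratio of 0.558 (0.341 to 0.895), and its peak also lay at an end of ESRRA.

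Both lists had a peak at 4 of 6 genes of NADPH supply, and DMSO alone at TKT, encoding transketolase, with 18 fragments. PGD, of the pentose phosphate pathway, had 44 fragments in inflachromene and 45 in DMSO. Neither list had a peak at 5 of 9 detoxification genes, AKR1B10, AKR1C1, AKR1C2, AKR1C3 and ABCC1, close to the 52.6% of all genes. OSGIN1 had a peak in inflachromene alone (18 fragments), CBR1 in DMSO alone (12 fragments), and UGDH had 25 and 26 fragments in inflachromene and DMSO. Both lists had a peak at 3 of 7 haem and iron genes, while HMOX2, the constitutive haem oxygenase gene, and BLVRA, a biliverdin reductase gene, had one in DMSO alone, with 21 and 12 fragments. BLVRB, the other biliverdin reductase gene, had 33 fragments in inflachromene and 56 in DMSO, a ratio of 0.589 (0.371 to 0.922).

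**Figure D5:**
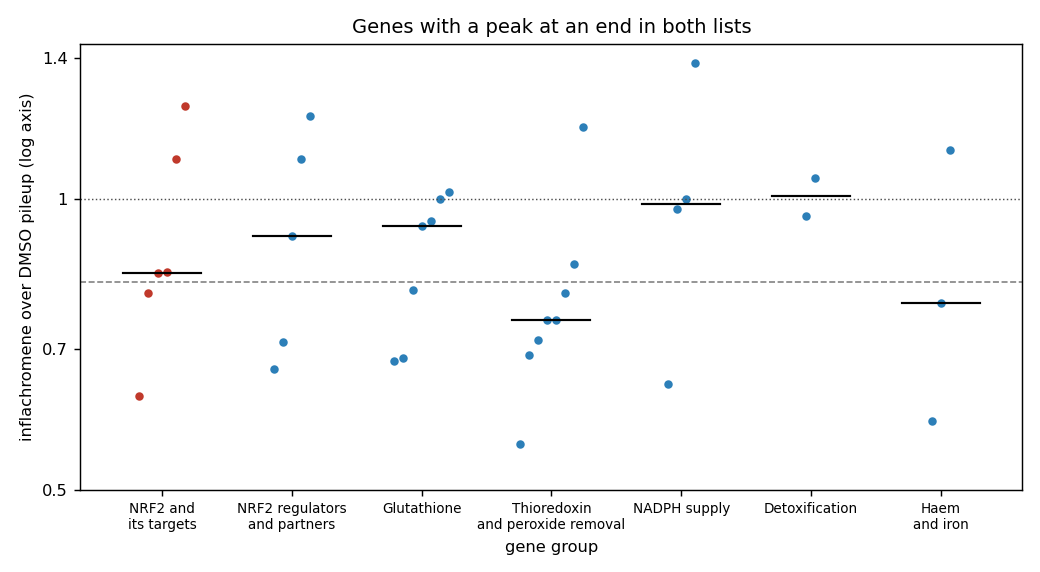
Ratio of inflachromene to DMSO pileup (vertical log axis) for genes with an end peak in both lists, by group; points are genes, short lines group medians, the dashed line the median of 0.821 over all genes and the dotted line 1. The thioredoxin and peroxide-removal group has the lowest median, 0.75, and every group except detoxification has values on both sides of the dashed line.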

How the data were processed

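ChIPmentation peak lists of 2 samples were analysed, 1 treated with inflachromene and 1 with DMSO. Per the labels' protocols, cells were fixed in 15 mM EGS for 30 min and 1% formaldehyde for 10 min. Per the submitters' processing notes the authors used MACS2 and deepTools 3.5.6 with hg38; the sources used here do not give the MACS2 version, aligner, duplicate handling, control or pooling. The deposited values are, per peak, the authors' fold enrichment of the summit (the ratio of its pileup to the background nearby), a −log10 p and a −log10 q, with a lowest −log10 q of 3.01 in inflachromene and 3.02 in DMSO, the summit's offset in bp, and an integer score, not used further.

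A whole pileup k and background b were solved from (k + 1)/(b + 1) and the Poisson p, matching the deposited −log10 p within 0.001 at all 10836 and 15186 peaks of inflachromene and DMSO. The step was also tested on simulated data made with the same formulas, which do not test the formulas themselves. The ratio of fragment numbers came from the lowest backgrounds, 0.683 and 0.651 fragments per base in inflachromene and DMSO, and fragment lengths of 165.7 and 152.4 bp implied by the even steps of the background. The lists give no read totals, so depth itself is unknown.

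A gene was classed by summits within 1000 bp of either RefSeq end (GRCh38.p14), or by an overlapping peak of the other list (at least 1 bp). For the ratio, the strongest DMSO end peak was set against the overlapping inflachromene peak, which favours a lower inflachromene value. Shares carry Clopper-Pearson and pileups exact Poisson 95% intervals; the interval of a ratio is the exact binomial one of its pair. Python 3.11.15 and scipy 1.17.1 were used. Promoter windows came from RefSeq. The genes named were all 10 members, every other pathway gene with a peak in 1 list (1 of these is not reported here), the one of highest mean pileup in each role group, every peak inside a member, and the 5 between genes of highest fold enrichment. Others are given as examples, named after their values were seen. The members and lists were chosen with earlier results of these data known. No likeness between gene patterns was computed from 2 libraries.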

Additional observations from a re-analysis of the deposited data

How the results depend on the processing

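All 52 recomputed values stayed within set bounds, which were 1.5 times the reported count for counts and 0.679 to 1.1 for the median ratio. The latter is the counting interval of the ratio of summed pileups, a wide band, and the median itself has no interval. The genes with an end peak numbered 6 to 8 in inflachromene and 5 to 7 in DMSO over windows of 500 and 2500 bp, a −log10 q of at least 5, an overlap of 50% of each peak, own summits, a DMSO list at equal length, and all annotated starts counted as ends, an alternative chosen after the data were examined. The shares over all protein-coding genes were not recomputed at these settings. The KEAP1 peak, 563 bp from the gene's end, left the count with the 500 bp window, and GCLC left the DMSO count at equal length. In none of these settings did a gene with a DMSO end peak lack one in inflachromene. The median ratio lay between 0.819 and 0.870, the highest with pileups divided by the ratio of fragment numbers. Equal length took the DMSO peaks within 50 kb to 18, below the 23 of inflachromene, so the order of these counts depends on the length of the lists. No paired analysis was possible because each treatment had 1 sample. The counting interval of the ratio included 1 at 19 of the 20 shared positions. These single ratios were not adjusted for the inferred fragment numbers, and the effect of depth on them was not tested.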
